A study of Mus musculus with 33 samples.

Results

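Glucuronic acid, sulfate and glutathione are joined to hormones, bile acids, bilirubin, drugs and reactive compounds by UDP-glucuronosyltransferases (UGT), sulfotransferases (SULT) and glutathione S-transferases (GST). The genes of these 3 enzyme families were taken from the deposited expression table by symbol, as the rows with a Ugt1, Ugt2, Ugt3, Sult or Gst stem, and symbols of pseudogenes were left out. They numbered 59 of the 21671 genes in the table, with 19 UGT, 18 SULT and 22 GST genes. The rule uses symbols and no expression value, though earlier results of these data were known when it was set.

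Conjugation makes a compound more soluble in water, so that transporters can move it into bile or blood. UGT enzymes sit in the endoplasmic reticulum and use UDP-glucuronic acid, most SULT and GST enzymes are cytosolic, and these use the sulfate donor PAPS and glutathione. In the liver several of the genes are known to respond to xenobiotic receptors and to NRF2, some mu-class GST genes are expressed mainly by perivenous hepatocytes, where Wnt and β-catenin signalling is active, and several Sult2a and Ugt2b genes differ between male and female mice.

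Total RNA was sequenced from 33 livers and liver nodules of C57BL/6 mice. In the short-term arm every mouse, wild type included, had received AAV8-TBG-CRE by intravenous injection at 6 to 8 weeks of age, and the liver was taken 4 days later. The virus brings in Cre under TBG, a promoter active in hepatocytes. This arm held 5 wild-type livers, 5 livers with the beta-cat Ex3 allele (Ex3 livers), 5 with the R26-lslMYC allele (MYC livers) and 5 with both (MYC+Ex3 livers). Cre removes exon 3 of the first allele, which stabilises β-catenin, and removes a stop cassette before MYC in the second. The tumour arm held 3 nodules of genotype Albeta-CreERT2/R26-lslMYC (MYC tumours) and 3 nodules with the β-catenin allele in addition (MYC+Ex3 tumours). CreERT2 is a Cre that 4-hydroxytamoxifen (4-OHT) switches on. The arm also held 7 wild-type livers taken 4 days after an intraperitoneal 4-OHT injection (4-OHT livers). For the nodules the labels give no treatment, age or time, so genotype, time and treatment cannot be told apart when tumours are set against 4-OHT livers. The labels do not say that each library came from its own animal, and p-values measure the spread between libraries.

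Expression is given as RPKM, a read count scaled to gene length and to the library's total reads. The short-term libraries held 3.73 to 7.29 M reads in genes and the tumour-arm libraries 6.63 to 9.81 M. The RPKM of the 2 arms may be on different scales, so levels are compared within an arm only. The highest RPKM of any gene was 220 to 396 in the short-term libraries and 42.9 to 67.5 in the tumour arm, and within groups the reads of 14 members above 100 RPKM followed depth with a median slope of 0.312, against 0.787 for 18 less abundant members, where 1 is proportional. Levels near that top are compressed in the short-term libraries, and changes of the most abundant members there may be understated. In the tumour arm the slopes spread widely, with medians of 0.0142 for 11 members above 20 RPKM and 0.127 for 20 below, and show no clear difference by abundance. Both medians lie below those of the short-term arm. Whether high levels are compressed in the tumour arm too was not tested, and changes of its abundant members may also be understated. All 10 hepatocyte markers examined were detected in every group. The Myc row of the table stood at 0.748 to 4.11 RPKM in wild-type and 3.12 to 4.81 RPKM in MYC short-term livers, overlapping ranges, and no source says whether that row takes in reads of the transgene. Levels of Ctnnb1, which encodes β-catenin, also overlapped between wild-type and Ex3 livers. The alleles are seen in other genes: 4 of 15 perivenous and Wnt genes rose in Ex3 livers, among them the Wnt target Axin2, and 6 of 6 proliferation genes rose in MYC livers. Over all genes 0.132% rose in Ex3 livers and 16.9% in MYC livers. Of the 15 perivenous and Wnt genes 8 fell in MYC livers, against 5.36% of all genes. Xist and Y-linked genes marked as male 2 wild-type, 3 Ex3, 3 MYC and 4 MYC+Ex3 livers of 5 each. In the tumour arm 4 of the 7 4-OHT livers, every MYC tumour and 2 MYC+Ex3 tumours were male. Epidermal keratins (Krt5, Krt14 and Krt17 together above 1 RPKM) were present in 3, 3, 1 and 3 of the 5 libraries of the same short-term groups and in none of the tumour arm.

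Differences below are log2 changes on the log2(RPKM + 1) scale with their standard error (SE), tested with limma across all genes of an arm, and a gene is called changed at a Benjamini-Hochberg adjusted p under 0.05. Only genes with 3 or more libraries of the arm at 1 RPKM or higher were tested. That left 51 of the 59 members in the short-term arm (17 UGT, 14 SULT, 20 GST) of 13688 genes, and 47 in the tumour arm (16, 11 and 20) of 11854 genes. Untested in both were Gsto2, Gstt4, Sult1c1, Sult2b1, Sult4a1, Sult6b1, Ugt2a1 and Ugt2a2, and in the tumour arm also Sult1e1, Sult2a4, Sult2a7 and Ugt1a10. The changes of low genes are understated on this scale. Some members cannot be counted apart with certainty. In 12 of the 59 more than 50% of the 50-base windows of the transcripts also occur in another gene, among them the 7 Ugt1a genes, which are spliced to shared final exons, and Gsta1, Sult2a2 and Gstp2. In 28 members under 5% are shared.

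In wild-type short-term liver the most abundant GST transcripts were Gsta3 at 193 ± 27 RPKM (SD, n = 5), Gstz1, the maleylacetoacetate isomerase of tyrosine breakdown, at 176 ± 11.4 RPKM (SD, n = 5), and Gstm1 at 168 ± 11.9 RPKM (SD, n = 5). The spreads of these 3 overlap, and so do those of the leading UGT genes, Ugt2b1 at 208 ± 43.5 RPKM (SD, n = 5), Ugt2b36 at 193 ± 29.1 RPKM (SD, n = 5) and Ugt2a3 at 177 ± 17.2 RPKM (SD, n = 5). Among SULT genes Sult1a1, a phenol sulfotransferase, led at 163 ± 25.8 RPKM (SD, n = 5), followed by Sult1d1 at 96.7 ± 44.2 RPKM (SD, n = 5). Sult3a1 came next at 61.8 ± 69.5 RPKM (SD, n = 5), a mean over libraries that ran from 0 in a male to 167 RPKM in a female. In 4-OHT liver the leading members were nearly the same: Gstm1, Gsta3 and Gstz1, then Ugt2a3, Ugt2b36 and Ugt2b1, and Sult1a1, Sult1d1 and Sult5a1. Sult1a1 stood at 34.9 ± 3.89 RPKM (SD, n = 7) there, in the arm whose scale may differ.

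Stabilised β-catenin alone was followed after 4 days by a rise of 1 member, Gstm2, a mu-class transferase. Called genes in this comparison made up 0.132% of all genes tested. Gstm2 stood at 59.1, 55.3, 88.8, 77.2 and 62.6 RPKM in the 5 wild-type livers and at 144, 128, 171, 160.2 and 134 RPKM in the 5 Ex3 livers. The lowest Ex3 value exceeded the highest wild-type value, and the log2 change was 1.11 ± 0.16 (SE, limma adjusted p = 0.00367). The gene did not pass in male libraries only (log2 change 0.99, limma adjusted p = 0.247), in keratin-free libraries (0.90, limma adjusted p = 1) or in keratin-bearing ones (1.25, limma adjusted p = 0.102). Those subsets hold 2 or 3 libraries a group.

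The neighbours of Gstm2 on chromosome 3 are Gstm5, Gstm7, Gstm6, Gstm3, Gstm1 and Gstm4, which lie together from position 107895854 to 108045179 of GRCm38. Gstm3 stood at 43.9, 42, 33.9, 64 and 23.5 RPKM in wild-type and 117, 118, 122, 108 and 79 RPKM in Ex3 livers, with a log2 change of 1.42 ± 0.36 (SE, limma adjusted p = 0.238). Gstm6 stood at 112, 86.3, 95.1, 96.5 and 80.3 RPKM in wild-type and 138, 136, 155, 147 and 142 RPKM in Ex3 livers, with a log2 change of 0.61 ± 0.21 (SE, limma adjusted p = 0.604). Neither passed the test, although in both genes the groups did not overlap. Groups kept apart in the upward direction for 5 members (Gstm2, Gstm3, Gstm6, Ugt1a2 and Ugt1a6a), against 1.03% of all genes, and in the downward direction for 0, against 0.563%. In the authors' deposited table the log2 changes were 0.95 for Gstm3 with an adjusted p of 3.34e-06, 0.91 for Gstm2 with 2.10e-09 and 0.54 for Gstm6 with 6.88e-05. The other mu-class genes had log2 changes of 0.23 (Gstm1), 0.41 (Gstm4), 0.06 (Gstm5) and 0.28 (Gstm7), none called. In Gstm3 28.8% of the 50-base windows occur elsewhere, in Gstm2 5.66% and in Gstm6 5.97%.

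**Figure D1:**
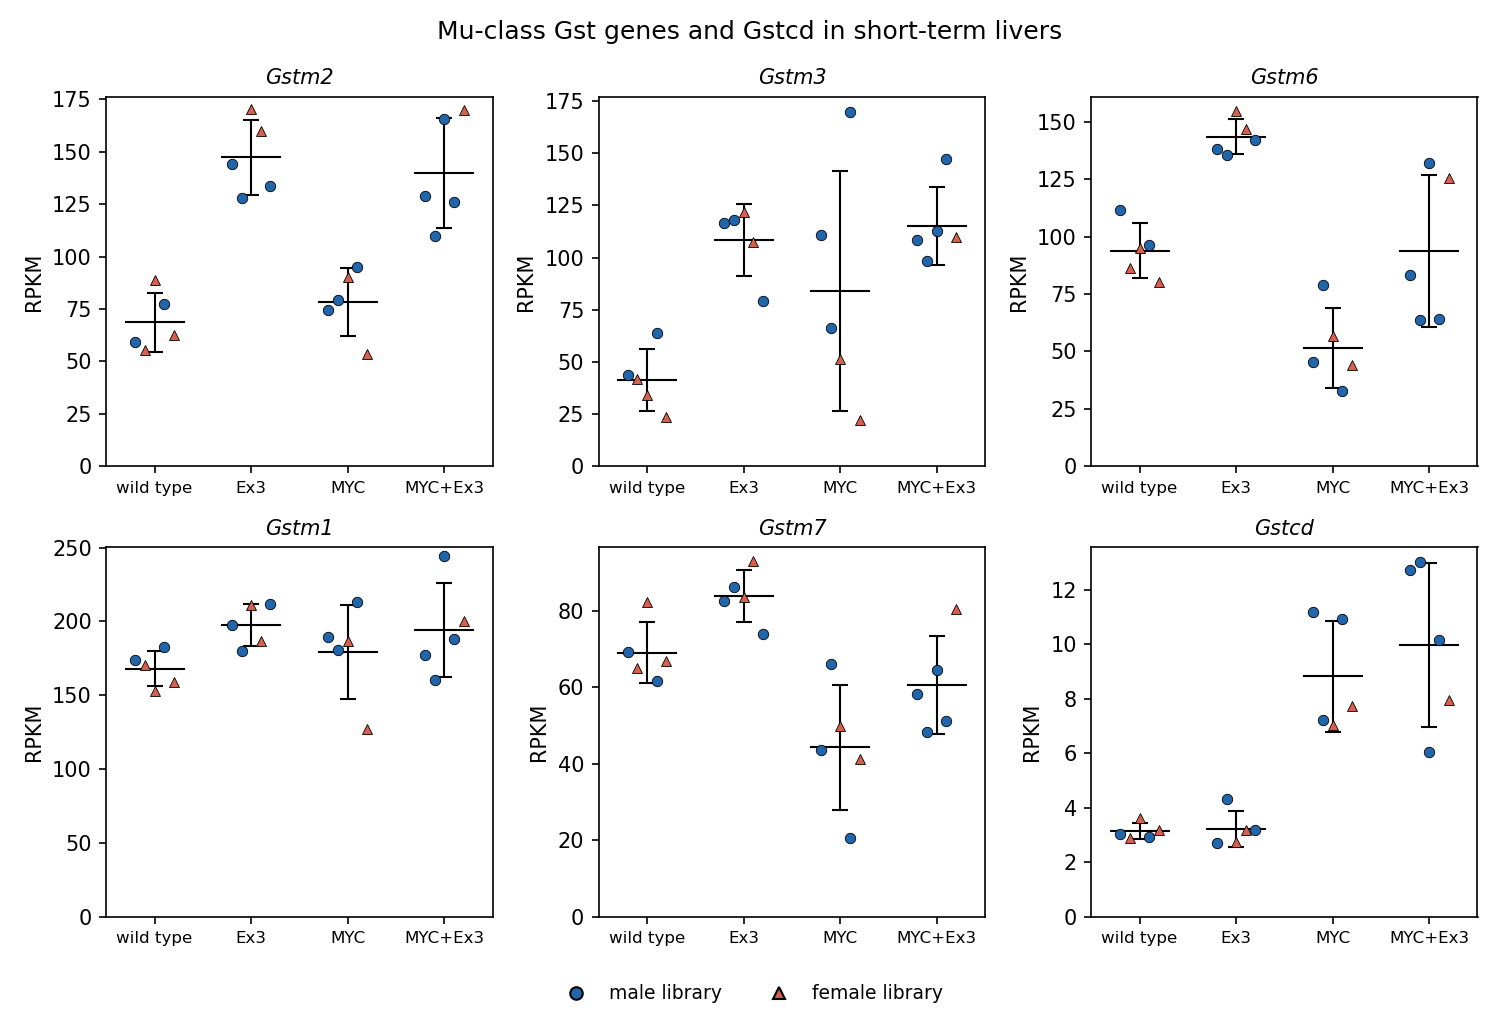
RPKM of 5 mu-class Gst genes and Gstcd in each short-term library (circles male, triangles female; lines mean ± SD, n = 5 a group). Gstm2 is higher in every Ex3 and MYC+Ex3 liver than in any wild-type or MYC liver, and Gstcd is higher in every MYC and MYC+Ex3 liver than in any other.

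MYC alone changed 12 of the 51 members by day 4, with 3 higher and 9 lower. Over all genes 22.3% were called, 16.9% higher and 5.36% lower. By family, 0 UGT genes rose and 4 of 17 fell, 0 SULT genes rose and 1 of 14 fell, and 3 GST genes rose and 4 of 20 fell. The median log2 change was -0.41 for UGT, -0.80 for SULT and 0.13 for GST genes, against 0.07 over all genes tested. The SULT median moves with sex: wild type held 3 females and MYC 2, it was -0.29 in MYC livers with a sex term, and Ex3 livers, also with 2 females, had -0.72 without that term and -0.10 with it, where 0 of 14 SULT genes were called.

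Gstcd, a gene with a GST-like C-terminal domain whose enzymatic role is little known, stood at 3.05, 2.9, 3.64, 2.94 and 3.2 RPKM in wild-type and 11.2, 7.24, 7.06, 10.9 and 7.73 RPKM in MYC livers. All MYC livers lay above all wild-type livers, with a log2 change of 1.22 ± 0.18 (SE, limma adjusted p = 6.32e-05). It was the one riser whose groups did not overlap, which held for 10.9% of all genes. Gsta1, an alpha-class transferase known as an NRF2 target, stood at 1.82, 0.439, 0.322, 2.14 and 0.297 RPKM in wild-type and 12.8, 5.26, 2.52, 28.5 and 1.75 RPKM in MYC livers, with a log2 change of 2.03 ± 0.61 (SE, limma adjusted p = 0.0203). The MYC livers ranged widely and overlapped wild type, and the call was lost without MYC replicate 1 or 4 (highest limma adjusted p = 0.0711). Of its 50-base windows 90.5% occur in another gene, so its reads could belong to a relative. Gsto1, an omega-class enzyme, rose by 0.35 ± 0.10 (SE, limma adjusted p = 0.0144), from 93.1 ± 10.9 RPKM (SD, n = 5) to 119 ± 14.1 RPKM (SD, n = 5), a call lost under median-ratio rescaling (limma adjusted p = 0.156).

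Among the GST genes that fell, Gstm6 stood at 45.3, 79.1, 56.6, 32.8 and 44.3 RPKM in MYC livers, all below the wild-type values given above, with a log2 change of -0.90 ± 0.21 (SE, limma adjusted p = 0.00363). Gstm7 stood at 69.3, 65.2, 82.4, 61.8 and 66.8 RPKM in wild-type and 43.6, 66.1, 49.9, 20.7 and 41.3 RPKM in MYC livers, with a log2 change of -0.71 ± 0.20 (SE, limma adjusted p = 0.0163). The theta-class Gstt1 changed by -0.55 ± 0.16 (SE, limma adjusted p = 0.0189), from 145 ± 15.1 RPKM (SD, n = 5) to 101 ± 24 RPKM (SD, n = 5). Gstk1, the kappa-class enzyme of mitochondria and peroxisomes, changed by -0.41 ± 0.14 (SE, limma adjusted p = 0.0395). The Gstt1 call was lost without MYC replicate 1 or 4 (highest limma adjusted p = 0.0636). The Gstk1 call was lost without wild-type replicate 1, 2, 3 or 4 or MYC replicate 1 or 4 (highest limma adjusted p = 0.125), with a sex term (0.053) and with a keratin term (0.0521, both limma adjusted p).

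Sult1b1, which sulfates thyroid hormones and small phenols, stood at 28.6, 24.4, 20.9, 23.6 and 24.6 RPKM in wild-type and 8.96, 15.6, 16.4, 10.5 and 10.8 RPKM in MYC livers. The groups did not overlap, and the log2 change was -0.95 ± 0.23 (SE, limma adjusted p = 0.00548). The 4 UGT genes that fell were Ugt2b37, both Ugt3a genes and Ugt2a3. Ugt2b37 stood at 10.4, 5.97, 21.5, 8.54 and 44.1 RPKM in wild-type and 4.76, 3.77, 8.97, 4.45 and 2.62 RPKM in MYC livers, overlapping ranges, with a log2 change of -1.43 ± 0.38 (SE, limma adjusted p = 0.0104). Ugt3a1, which uses UDP-N-acetylglucosamine in place of UDP-glucuronic acid, stood at 101, 60.4, 70.8, 85 and 82.8 RPKM in wild-type and 42.6, 66.7, 49.6, 23.2 and 41.9 RPKM in MYC livers, with a log2 change of -0.88 ± 0.24 (SE, limma adjusted p = 0.0138). Its neighbour Ugt3a2 stood at 133, 133, 125, 143 and 143 RPKM in wild-type and 88.6, 105, 119, 58.4 and 88.6 RPKM in MYC livers, which did not overlap, with a log2 change of -0.59 ± 0.18 (SE, limma adjusted p = 0.0197). Ugt2a3 changed by -0.52 ± 0.17 (SE, limma adjusted p = 0.0298), from 177 ± 17.2 RPKM (SD, n = 5) to 124 ± 24.6 RPKM (SD, n = 5), and lost its call with a keratin term (limma adjusted p = 0.0569). It also lost it without wild-type replicate 1, 2, 4 or 5 or MYC replicate 1, 4 or 5 (highest limma adjusted p = 0.0797), as Ugt3a2 did without MYC replicate 4 (0.0654). Groups kept apart downward for 3 members (Gstm6, Sult1b1 and Ugt3a2), against 2.4% of all genes. Without MYC replicate 4 the number of calls was 7.

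MYC and β-catenin together changed 9 members against wild type, 6 higher and 3 lower, where 24.1% of all genes were called, 17.9% higher and 6.18% lower. Under median-ratio rescaling the split was 4 higher and 4 lower. Gstcd stood at 12.7, 13, 6.03, 10.1 and 7.94 RPKM in MYC+Ex3 livers and changed by 1.36 ± 0.18 (SE, limma adjusted p = 1.47e-05). Gstm2 stood at 129, 109.8, 166, 126 and 169.9 RPKM, all above wild type, and changed by 1.02 ± 0.16 (SE, limma adjusted p = 8.63e-05). Gstm3 stood at 108, 98.5, 113, 147 and 109.8 RPKM, also all above wild type, and changed by 1.51 ± 0.36 (SE, limma adjusted p = 0.00413). Those 3 risers had groups that did not overlap, which 13.5% of all genes had. The pi-class Gstp2 changed by 1.08 ± 0.35 (SE, limma adjusted p = 0.0272), Gsto1 by 0.35 ± 0.10 (SE, limma adjusted p = 0.014) and Ugt1a7c by 0.86 ± 0.30 (SE, limma adjusted p = 0.0392). With a sex term the change of Gstp2 was 0.72 (limma adjusted p = 0.0344), and among males only it was 0.62 and not called (0.115), the groups holding 4 and 2 males. The Gsto1 call was lost under median-ratio rescaling (limma adjusted p = 0.12). Gstp2 lost its call without wild-type replicate 2 or 5 or MYC+Ex3 replicate 1 or 2 (highest limma adjusted p = 0.0846). Ugt1a7c lost it without wild-type replicate 1, 4 or 5 or MYC+Ex3 replicate 1, 2, 3 or 4 (highest limma adjusted p = 0.109).

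The fallers in MYC+Ex3 livers were Ugt2b37, Ugt3a1 and Sult1b1. Ugt2b37 stood at 1.62, 2.62, 4.26, 3.13 and 3.2 RPKM, every library below every wild-type liver (downward separation, 3.7% of all genes), with a log2 change of -1.96 ± 0.38 (SE, limma adjusted p = 7.66e-04). Ugt3a1 stood at 46.2, 39.2, 65.3, 23.2 and 59.9 RPKM and changed by -0.82 ± 0.24 (SE, limma adjusted p = 0.0184), a call lost without MYC+Ex3 replicate 4 (limma adjusted p = 0.056). Sult1b1 stood at 12.7, 8.7, 23, 11.1 and 20.0 RPKM and changed by -0.73 ± 0.23 (SE, limma adjusted p = 0.0252). That call was lost with a sex term (limma adjusted p = 0.0618) and without wild-type replicate 1 or MYC+Ex3 replicate 1, 2 or 4 (highest limma adjusted p = 0.0886).

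Adding β-catenin to MYC changed 1 member, Gstm2, where 0.19% of all genes were called. Gstm2 stood at 74.7, 79.5, 90.5, 94.8 and 53.4 RPKM in MYC livers, all below the MYC+Ex3 livers (0.497% of all genes separated this way), with a log2 change of 0.83 ± 0.16 (SE, limma adjusted p = 0.0345). Leaving out MYC replicate 1, 2, 3 or 5 or MYC+Ex3 replicate 1, 3 or 5 ended this call (highest limma adjusted p = 0.141), as did a keratin term (0.0542). In the other direction Sult2a7, named after its values were seen, stood at 5.51, 7.35, 3.81, 8.34 and 8.16 RPKM in MYC and 0.848, 2.13, 2.08, 0.437 and 1.39 RPKM in MYC+Ex3 livers. The groups did not overlap, which 0.183% of all genes showed downward, but the gene was not called, at -1.70 ± 0.41 (SE, limma adjusted p = 0.17). The authors' deposited table gives it a log2 change of -0.89 with an adjusted p of 5.65e-04. Adding MYC to β-catenin raised Gstcd by 1.34 ± 0.18 (SE, limma adjusted p = 3.19e-05) and Gsto1 by 0.32 ± 0.10 (SE, limma adjusted p = 0.0241), and it lowered Gstm6, Sult1b1, Ugt2b37 and Ugt3a1, 6 calls in all where 21.1% of all genes were called (16.4% higher and 4.7% lower). The split was 1 higher and 5 lower under rescaling. In that comparison Gstm6 changed by -0.68 ± 0.21 (SE, limma adjusted p = 0.0242), with MYC+Ex3 livers at 83.3, 63.5, 132, 64.1 and 126 RPKM, and Ugt2b37 by -1.34 ± 0.38 (SE, limma adjusted p = 0.0165). The count moved to 14 without MYC+Ex3 replicate 5 and to 12 without MYC replicate 4. The Gstm6 call was lost without Ex3 replicate 3 or MYC+Ex3 replicate 1, 2 or 4 (highest limma adjusted p = 0.0834), that of Gsto1 without Ex3 replicate 1 or 3 or MYC+Ex3 replicate 3 (0.0597) and under rescaling (0.143), that of Sult1b1 without MYC+Ex3 replicate 2 (0.0606) and that of Ugt2b37 without MYC+Ex3 replicate 1 (0.0505). The comparisons with wild type share the 5 wild-type livers.

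Whether the 2 alleles together differed from the sum of their separate changes was tested by an interaction term. It called 0 of the 51 members and 0 of 13688 genes by limma (0.0%), and 0 members had an unadjusted p under 0.05. For Gstm2 the interaction was -0.27 ± 0.23 (SE, limma adjusted p = 1) and for Gstm6 0.22 ± 0.29 (SE, limma adjusted p = 1). A count of 0 does not show that the changes add up.

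The sex term called more members than any short-term comparison of genotypes. With that term added to the 4 short-term groups, 17 of 51 members were called, 5 higher in males and 12 higher in females, against 3.09% of all genes (1.5% higher in males and 1.59% in females). The SULT family held 8 of them, all higher in females. Sult2a1, a hydroxysteroid sulfotransferase that acts on DHEA and bile acids, ranged over 0 to 1.01 RPKM (median 0, n = 12) in males and 54.6 to 125 RPKM (median 62.6, n = 8) in females. The male minus female log2 difference was -6.05 ± 0.17 (SE, limma adjusted p = 1.19e-15). Sult2a2 was at 0 in all 12 male livers and ranged over 34 to 59.4 RPKM (median 42.8, n = 8) in females, a difference of -5.50 ± 0.09 (SE, limma adjusted p = 3.12e-19). Sult3a1 ranged over 0 to 0.216 RPKM (median 0, n = 12) in males and 13.9 to 167 RPKM (median 91.9, n = 8) in females, a difference of -6.05 ± 0.27 (SE, limma adjusted p = 2.30e-12). Sult2a3, Sult2a4, Sult2a5, Sult2a6 and Sult1a1 were also higher in females. Reads of Sult2a2 and Sult2a1 may be exchanged, since 62.1% of the windows of the former occur elsewhere, most of them in the latter.

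Ugt2b38 was the member with the largest male excess. It ranged over 4.55 to 48.5 RPKM (median 10.5, n = 12) in males and 0 to 3.74 RPKM (median 0.375, n = 8) in females, with a difference of 3.27 ± 0.28 (SE, limma adjusted p = 1.36e-07). Gstp1, the pi-class transferase, ranged over 69.3 to 102 RPKM (median 81.4, n = 12) in males and 25.6 to 58.4 RPKM (median 41.2, n = 8) in females, a difference of 0.91 ± 0.15 (SE, limma adjusted p = 7.29e-04). Gstp2, Gsta1 and Gstm4 were higher in males as well, and Gstt1, Gstt3, Ugt1a1 and Ugt1a5 in females, with Gstt3 at -1.40 ± 0.17 (SE, limma adjusted p = 3.04e-05) and Ugt1a5 at -1.36 ± 0.13 (SE, limma adjusted p = 1.01e-06). Males and females did not overlap for Gstp1 and Ugt2b38 (males higher, 0.226% of all genes) and for 8 members with females higher (0.3%), namely Gstt3, Sult3a1 and Sult2a1 to Sult2a6. Some of these calls rested on single libraries: the calls of Gsta1, Gstm4, Gstt1, Sult1a1 and Ugt1a1 were each lost on leaving out at least 1 library, with highest limma adjusted p of 0.104, 0.0851, 0.129, 0.0719 and 0.095. The libraries were MYC+Ex3 replicate 5 for all but Gstm4, wild-type replicates 1, 2 and 4, Ex3 replicates 1, 2 and 3 and MYC replicates 1, 3 and 5, each for some of these genes. MYC replicate 5 was counted as female by its Xist level of 86.1 RPKM, but it held Y-linked genes at 8.93 RPKM.

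**Figure D2:**
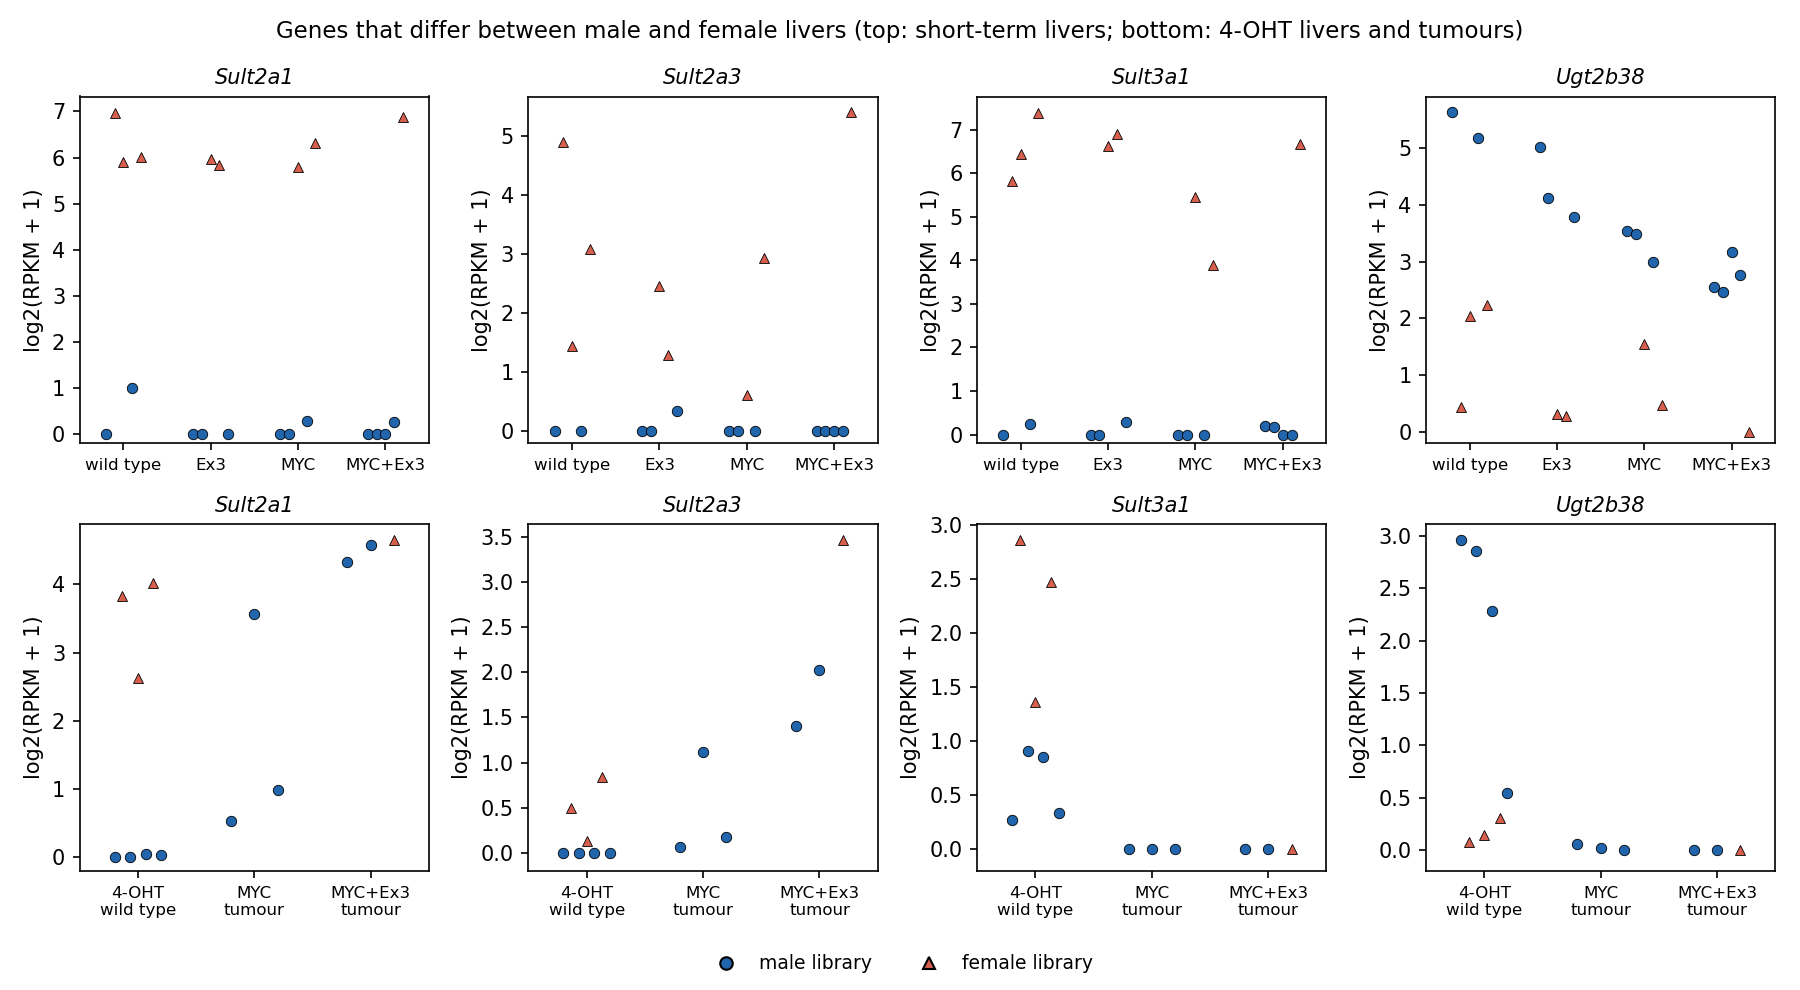
log2(RPKM + 1) of Sult2a1, Sult2a3, Sult3a1 and Ugt2b38 in each short-term library (top) and each 4-OHT liver and tumour (bottom), circles male and triangles female. Sult2a1 separates the sexes in every short-term group and in 4-OHT liver, and the 2 male MYC+Ex3 tumours lie at 19.0 and 22.8 RPKM, above the female 4-OHT livers.

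In the tumour arm the sex term called 0 members by limma and 6 genes in all (0.0506%; 0.0337% higher in males and 0.0169% in females), while 11 members had an unadjusted p under 0.05. Among 4-OHT livers 6 members were higher in all 3 females than in all 4 males (Sult2a1, Sult2a2, Sult2a3, Sult2a5, Sult2a6 and Sult3a1; 3.64% of all genes), and 9 were higher in all males (14.5%), Ugt1a9, Ugt2b1 and Ugt2b38 among them. The sex differences of the arms were not set against each other by a test.

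Most UGT genes fell in tumours. In each kind of tumour 12 of 16 UGT genes fell and 0 rose, and all 16 had a negative log2 change. The median log2 change of the family was -1.07 in MYC tumours and -1.23 in MYC+Ex3 tumours, while that of all genes was 0.19 and 0.23. Over the 3 families, 24 of 47 members were called in MYC tumours, 4 higher and 20 lower, against 49.8% of all genes (36.2% higher and 13.7% lower). In MYC+Ex3 tumours 27 were called, 7 higher and 20 lower, against 60.6% of all genes (42.3% higher and 18.4% lower). Median-ratio rescaling brought the all-gene medians to 0.01 and 0.04, with 3 members higher and 27 lower in MYC tumours and 7 and 29 in MYC+Ex3 tumours. Both comparisons share the 7 4-OHT livers.

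Marker sums of other cells differed as well. The summed RPKM of 10 macrophage markers was 151 to 207 in 4-OHT livers, 53.0 to 157 in MYC tumours and 75.7 to 97.1 in MYC+Ex3 tumours, and that of 8 endothelial markers 47.0 to 80.0, 24.3 to 43.9 and 27.9 to 33.3. The sum of 6 proliferation genes was 13.2 to 37.3, 60.8 to 102 and 103 to 124. That of 9 stellate and fibroblast markers was 54.9 to 70.9, 34.1 to 53.8 and 30.3 to 36.7, with 2 higher and 4 lower in MYC tumours and 1 and 7 in MYC+Ex3 tumours. That of 4 erythroid markers was 17.9 to 37.0, 14.95 to 48.7 and 52.5 to 62.1, with 3 of 4 higher in MYC+Ex3 tumours. That of 9 cholangiocyte and progenitor markers was 11.3 to 17.2, 8.64 to 23.5 and 5.38 to 9.67. Of 10 hepatocyte markers 0 fell in MYC and 3 in MYC+Ex3 tumours, and their sum was 327 to 439.8, 298 to 477 and 297 to 376. The shares of all genes called were 36.2% higher and 13.7% lower in MYC tumours, and 42.3% and 18.4% in MYC+Ex3 tumours. No marker of these lists was at 0 in all libraries of a group. The part of these shifts in the results for the conjugation genes was not tested. In bulk tissue fewer cells of a type and less RNA per cell cannot be told apart.

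In MYC+Ex3 tumours Ugt3a1 had the largest negative log2 change of the UGT genes. It ranged from 7.1 to 18.9 RPKM (median 11.8) in 4-OHT livers and stood at 6.37, 1.34 and 0.0482 RPKM in the MYC tumours and 0.257, 0.149 and 0.0432 RPKM in the MYC+Ex3 tumours. All 6 tumours lay below all 4-OHT livers, with log2 changes of -2.27 ± 0.43 (SE, limma adjusted p = 6.55e-04) and -3.47 ± 0.43 (SE, limma adjusted p = 1.14e-05). MYC replicate 1 kept the most and MYC replicate 3 the least of the MYC tumours. Ugt3a2 ranged from 18.4 to 27.1 RPKM (median 25.6) in 4-OHT livers and stood at 8.4, 5.65 and 0.538 RPKM in MYC tumours and 5.41, 3.68 and 0.709 RPKM in MYC+Ex3 tumours, with log2 changes of -2.40 ± 0.46 (SE, limma adjusted p = 7.45e-04) and -2.70 ± 0.46 (SE, limma adjusted p = 1.70e-04).

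Ugt2a3 ranged from 26.3 to 38.4 RPKM (median 34.1) in 4-OHT livers and stood at 19.4, 9.66 and 6.09 RPKM in MYC tumours and 4.45, 5.9 and 4.22 RPKM in MYC+Ex3 tumours. Again no tumour reached the lowest 4-OHT liver, and the log2 changes were -1.52 ± 0.24 (SE, limma adjusted p = 2.10e-04) and -2.51 ± 0.24 (SE, limma adjusted p = 1.59e-06). In the Ugt2b cluster Ugt2b1, which conjugates steroids and drugs, ranged from 14.3 to 39.2 RPKM (median 20.6) in 4-OHT livers and stood at 15.3, 7.55 and 4.95 RPKM in MYC tumours and 3.25, 3.76 and 1.58 RPKM in MYC+Ex3 tumours. Its log2 changes were -1.38 ± 0.37 (SE, limma adjusted p = 0.0065) and -2.71 ± 0.37 (SE, limma adjusted p = 2.47e-05), and the first was lost without MYC replicate 3 (limma adjusted p = 0.0527). Ugt2b36 changed by -0.86 ± 0.18 (SE, limma adjusted p = 0.00161) and -1.76 ± 0.18 (SE, limma adjusted p = 2.84e-06), and Ugt2b5 by -0.60 ± 0.21 (SE, limma adjusted p = 0.0292) and -0.88 ± 0.21 (SE, limma adjusted p = 0.0024).

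Ugt2b37 ranged from 1.24 to 7.9 RPKM (median 1.86) in 4-OHT livers. It was close to absent from tumours, with 2, 1 and 2 reads in the MYC tumours and 4, 1 and 0 in the MYC+Ex3 tumours, and log2 changes of -2.02 ± 0.44 (SE, limma adjusted p = 0.00176) and -2.02 ± 0.44 (SE, limma adjusted p = 0.00112). Ugt2b38 had 2, 1 and 0 reads in the MYC tumours and 0 in all 3 MYC+Ex3 tumours, against a mean of 2.53 RPKM in 4-OHT livers. With a floor of 3 reads per library the level in MYC+Ex3 tumours was at least 51.4-fold lower, or 87.9-fold against male and 2.68-fold against female 4-OHT livers. The 4-OHT livers spread over 0.0564 to 6.79 RPKM with all males above all females, and neither tumour comparison passed (limma adjusted p = 0.0901 and 0.0728). Ugt2b34 and Ugt1a7c were the other UGT genes not called in either tumour, and Ugt2b34 had log2 changes of -0.21 and -0.23. The authors' deposited table gives changes for MYC and MYC+Ex3 tumours in turn. Ugt2b38 stands there at -1.87 and -3.20 (authors' adjusted p of 0.0181 and 9.24e-04) and Ugt1a7c at -1.255 and -1.88 (0.0418 and 6.30e-04). Ugt2b34 stands at -0.39 and -0.46 (0.0538 and 2.04e-05), and Ugt1a10, untested by limma, at -3.79 and -4.08 (2.55e-10 and 1.09e-12).

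Among the Ugt1a genes, Ugt1a9 ranged from 3.49 to 11.5 RPKM (median 8.53) in 4-OHT livers and stood at 2.07, 3.23 and 0.269 RPKM in MYC tumours and 0.342, 0.593 and 0.252 RPKM in MYC+Ex3 tumours, with log2 changes of -1.59 ± 0.38 (SE, limma adjusted p = 0.00363) and -2.46 ± 0.38 (SE, limma adjusted p = 8.18e-05). Ugt1a5 ranged from 4.61 to 7.33 RPKM (median 5.3) in 4-OHT livers and stood at 2.08, 1.13 and 0.895 RPKM and 2.02, 1.98 and 1.8 RPKM, with log2 changes of -1.49 ± 0.15 (SE, limma adjusted p = 5.80e-06) and -1.15 ± 0.15 (SE, limma adjusted p = 1.86e-05). Smaller changes were called for Ugt1a2 (-0.60 and -0.66) and Ugt1a6a (-0.56 and -0.48). Ugt1a1, the enzyme that conjugates bilirubin, stood at 13.8, 6.75 and 7.65 RPKM in MYC tumours and 7.66, 8.58 and 10.6 RPKM in MYC+Ex3 tumours, against 12.4 ± 1.26 RPKM (SD, n = 7) in 4-OHT livers. Its log2 change was -0.42 ± 0.17 (SE, limma adjusted p = 0.0532) in MYC tumours and -0.44 ± 0.17 (SE, limma adjusted p = 0.0385) in MYC+Ex3 tumours. The second was lost without 4-OHT replicate 2, 3 or 5 or MYC+Ex3 replicate 1 or 2 (highest limma adjusted p = 0.161). The shared exons mean that these 7 genes are not independent measurements.

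**Figure D3:**
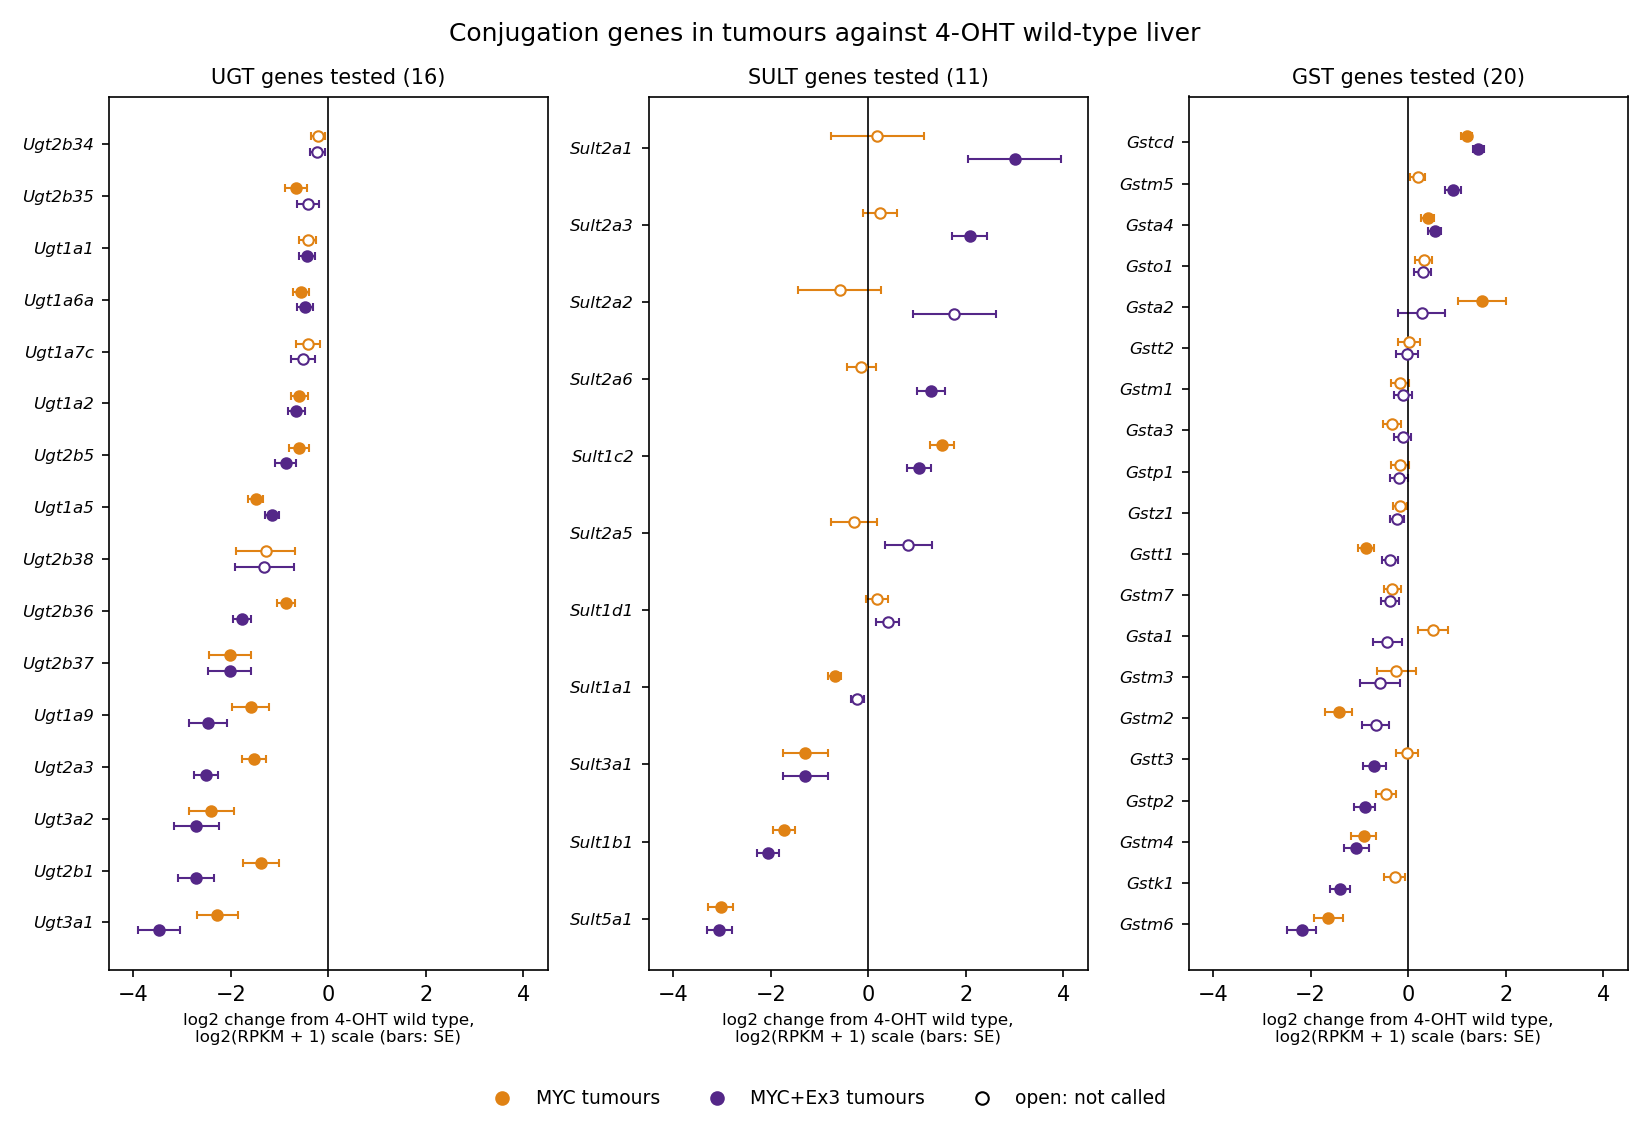
log2 change ± SE of each tested UGT, SULT and GST gene in MYC tumours (orange, n = 3) and MYC+Ex3 tumours (purple, n = 3) against 4-OHT livers (n = 7), on the log2(RPKM + 1) scale; open symbols did not pass the test. All 16 UGT genes lie left of 0 in both, while SULT and GST genes lie on both sides.

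The 250 bases before the transcription start were searched on both strands in the RefSeq promoters of GRCm38.p6, in which 52 of the 59 members have 63 entries among 32851 promoters in all. The TCF sequence CTTTGAT occurred in 3.21% of all promoters and in 0 of the member promoters, the E-box CACGTG, which MYC binds, in 6.02% and 0, and the antioxidant response element TGACNNNGC, which NRF2 binds, in 10.2% and in Gsta3, Gstm5 and Gstm7.

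The promoters of Ugt2b37 and Ugt2b38, the pair of Ugt2b genes nearest to 0 reads in tumours, are shown because they are near copies. They lie at chr5:87254789-87255038 and chr5:87424204-87424453 (both minus strand), share a run of 82 bases, given in capitals, and have 225 identical and 11 differing bases where aligned.
Ugt2b37: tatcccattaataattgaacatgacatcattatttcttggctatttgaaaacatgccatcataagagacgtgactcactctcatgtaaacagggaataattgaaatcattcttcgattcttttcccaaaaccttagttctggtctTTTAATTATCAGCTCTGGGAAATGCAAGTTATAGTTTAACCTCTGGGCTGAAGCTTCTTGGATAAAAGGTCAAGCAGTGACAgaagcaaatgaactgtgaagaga
Ugt2b38: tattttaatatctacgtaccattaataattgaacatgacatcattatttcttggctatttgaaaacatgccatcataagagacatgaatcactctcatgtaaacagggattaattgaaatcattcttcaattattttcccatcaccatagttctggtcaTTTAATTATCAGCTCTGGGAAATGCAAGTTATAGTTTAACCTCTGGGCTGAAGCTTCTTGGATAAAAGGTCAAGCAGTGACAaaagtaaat

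Sulfotransferase genes moved in both directions in tumours. Of 11 tested, 1 rose and 4 fell in MYC tumours, and 4 rose and 3 fell in MYC+Ex3 tumours. Over all genes 36.2% rose and 13.7% fell in MYC tumours, and 42.3% and 18.4% in MYC+Ex3 tumours, all without a sex term. With that term 1 SULT gene rose and 3 fell in MYC tumours, and 6 rose and 3 fell in MYC+Ex3 tumours. It moved the family median log2 change from -0.29 to 0.21 in MYC tumours and from 0.83 to 0.95 in MYC+Ex3 tumours. Sult5a1, a sulfotransferase of little-known substrate, had the largest fall of any SULT gene. It ranged from 3.24 to 11.2 RPKM (median 7.82) in 4-OHT livers, on 144 to 387 reads, and had 2, 5 and 1 reads in MYC tumours and 2, 1 and 2 in MYC+Ex3 tumours, with log2 changes of -3.02 ± 0.26 (SE, limma adjusted p = 1.37e-06) and -3.06 ± 0.26 (SE, limma adjusted p = 4.67e-07). Sult1b1 ranged from 4.07 to 6.97 RPKM (median 5.86) in 4-OHT livers and stood at 2.08, 0.951 and 0.235 RPKM in MYC tumours and 0.373, 0.694 and 0.61 RPKM in MYC+Ex3 tumours, with log2 changes of -1.73 ± 0.23 (SE, limma adjusted p = 4.23e-05) and -2.06 ± 0.23 (SE, limma adjusted p = 4.34e-06). No tumour overlapped the 4-OHT livers in either gene.

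Sult3a1 had 0 reads in all 6 tumours. In 4-OHT livers it ranged from 0.204 to 6.27 RPKM (median 0.883), so that with a floor of 3 reads per library its mean was at least 24.0-fold lower in MYC tumours and at least 24.4-fold lower in MYC+Ex3 tumours (limma adjusted p = 0.0311 and 0.0256). The 3 female livers carry that mean, and against the 4 male livers alone, at a mean of 0.538 RPKM, the bounds were 6.22-fold and 6.31-fold. Each tumour library left out in turn ended its group's call (highest limma adjusted p = 0.0784 and 0.0691), and so did a sex term in MYC tumours (0.0899), whose 3 libraries are male. Sult1a1 fell in MYC tumours, with a log2 change of -0.68 ± 0.13 (SE, limma adjusted p = 7.53e-04), and was not called in MYC+Ex3 tumours, at -0.22 ± 0.13 (SE, limma adjusted p = 0.16). In the authors' deposited table Sult1a1 fell in both, by -0.89 and -0.44, with adjusted p of 1.68e-08 and 5.92e-06. Sult1c2 rose in both, from 2.09 ± 0.595 RPKM (SD, n = 7) to 4.09, 7.73 and 13.9 RPKM and 5.24, 6.17 and 4.53 RPKM, with log2 changes of 1.52 ± 0.25 (SE, limma adjusted p = 2.29e-04) and 1.04 ± 0.25 (SE, limma adjusted p = 0.00219).

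Sult2a1, Sult2a3 and Sult2a6, all higher in females among normal livers, rose in MYC+Ex3 tumours. Sult2a1 stood at 0 to 0.0344 RPKM in the 4 male and at 13.2, 5.15 and 15.2 RPKM in the 3 female 4-OHT livers. In MYC+Ex3 tumours it stood at 19, 22.8 and 24 RPKM, of which the first pair are male, and in MYC tumours, all male, at 0.451, 10.8 and 0.981 RPKM. The log2 change was 3.01 ± 0.96 (SE, limma adjusted p = 0.0139) in MYC+Ex3 tumours and 0.19 ± 0.96 (SE, limma adjusted p = 0.883) in MYC tumours. Among male libraries only, it was 4.43 in MYC+Ex3 tumours (limma adjusted p = 8.77e-04). Each MYC tumour also lay above every male 4-OHT liver, and the MYC tumour change of 0.19 is against livers of both sexes. Sult2a3 stood at 1.64, 3.05 and 10.0 RPKM in MYC+Ex3 tumours against 0 to 0.792 RPKM in 4-OHT livers, a log2 change of 2.08 ± 0.36 (SE, limma adjusted p = 1.86e-04), and Sult2a6 at 3.78, 2.14 and 1.14 RPKM against 0 to 1.07 RPKM, a change of 1.28 ± 0.29 (SE, limma adjusted p = 0.00156). The authors' deposited table gives changes in these tumours of 0.87 for Sult2a1 (adjusted p of 0.424), 2.26 for Sult2a3 (0.0258) and 1.15 for Sult2a6 (0.283). Sult2a1 and Sult2a6 were thus not called there. Of 13 male-biased liver genes outside the families 0 rose and 6 fell in MYC tumours, and 0 rose and 8 fell in MYC+Ex3 tumours. Of 15 female-biased ones 3 rose and 6 fell in each kind of tumour. The shares over all genes were 36.2% higher and 13.7% lower in MYC tumours, and 42.3% and 18.4% in MYC+Ex3 tumours.

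**Figure D4:**
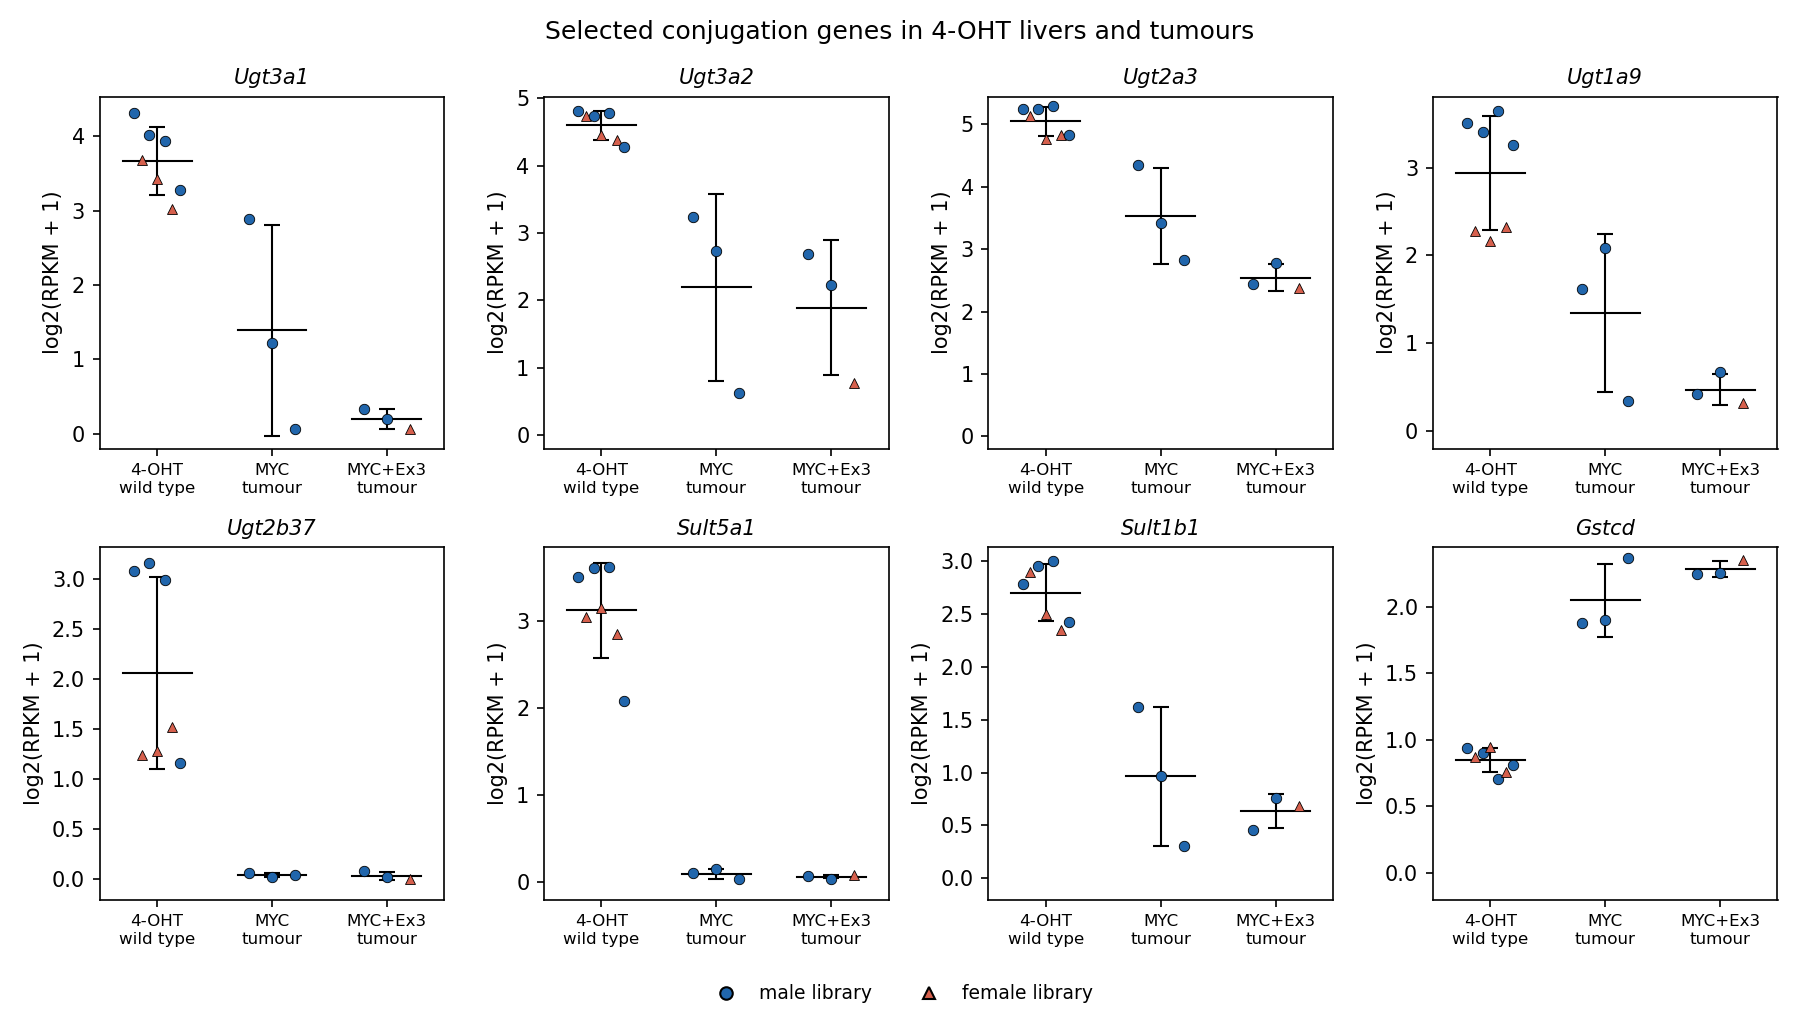
log2(RPKM + 1) of 5 UGT genes, 2 SULT genes and Gstcd in each 4-OHT liver (n = 7), MYC tumour (n = 3) and MYC+Ex3 tumour (n = 3), circles male and triangles female, lines mean ± SD. The first 7 genes are lower in every tumour than in any 4-OHT liver and Gstcd is higher.

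In the GST family 3 of 20 genes rose and 4 fell in MYC tumours, and 3 rose and 5 fell in MYC+Ex3 tumours, with median log2 changes of -0.17 and -0.30. Of all genes tested 36.2% rose and 13.7% fell in the former, and 42.3% and 18.4% in the latter. The 3 most abundant GST genes of 4-OHT livers, Gstm1, Gsta3 and Gstz1, did not pass, nor did Gstp1. In MYC and MYC+Ex3 tumours in turn the log2 changes were -0.17 and -0.11 for Gstm1, -0.33 and -0.11 for Gsta3, -0.18 and -0.23 for Gstz1 and -0.17 and -0.19 for Gstp1. In the authors' deposited table all of them fell in MYC+Ex3 tumours, by -0.34, -0.34, -0.45 and -0.43, with adjusted p of 0.00448, 0.00708, 1.18e-05 and 0.00837. That table gives adjusted p of 0.213, 0.0325, 0.0317 and 0.126 in MYC tumours. Gstcd rose in tumours as it had in short-term livers. It stood at 0.635 to 0.93 RPKM in 4-OHT livers, 2.69, 2.74 and 4.15 RPKM in MYC tumours and 3.75, 3.76 and 4.11 RPKM in MYC+Ex3 tumours, with log2 changes of 1.20 ± 0.12 (SE, limma adjusted p = 3.56e-06) and 1.44 ± 0.12 (SE, limma adjusted p = 3.41e-07). No left-out library, and no alternative that tested the gene, ended a Gstcd call in the 5 comparisons that made one. In the tumour arm a filter at 5 RPKM left Gstcd untested, since its highest value there was 4.15 RPKM.

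Of the alpha class Gsta4 rose in both kinds of tumour and Gsta2 in MYC tumours. Gsta4, which conjugates the lipid peroxidation product 4-hydroxynonenal, changed by 0.40 ± 0.13 (SE, limma adjusted p = 0.0211) and 0.55 ± 0.13 (SE, limma adjusted p = 0.00267). Gsta2 stood at 12.2, 6.02 and 1.36 RPKM in MYC tumours against 0.231 to 3.21 RPKM in 4-OHT livers, a change of 1.52 ± 0.49 (SE, limma adjusted p = 0.0188) that was lost with a sex term (limma adjusted p = 0.0624), as was that of Gsta4 (0.0677). Without MYC replicate 1 or 2 the Gsta2 call was lost (highest limma adjusted p = 0.12), and without MYC replicate 2 or 3 that of Gsta4 (0.0656). Under median-ratio rescaling the change of Gsta4 was 0.20 in MYC tumours, no longer called (limma adjusted p = 0.146), and 0.33 in MYC+Ex3 tumours, and among males only the latter was not called (0.0748).

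Of the mu class Gstm4 and Gstm6 fell in both kinds of tumour and Gstm2 in MYC tumours. Gstm6 ranged from 10.1 to 21.2 RPKM (median 14.5) in 4-OHT livers and stood at 7.47, 5 and 1.36 RPKM in MYC tumours and 2.6, 2.58 and 1.98 RPKM in MYC+Ex3 tumours, none overlapping, with log2 changes of -1.63 ± 0.30 (SE, limma adjusted p = 5.56e-04) and -2.18 ± 0.30 (SE, limma adjusted p = 2.95e-05). Gstm4 changed by -0.91 ± 0.26 (SE, limma adjusted p = 0.00907) and -1.06 ± 0.26 (SE, limma adjusted p = 0.00247). Gstm2, the gene that rose with β-catenin in short-term livers, ranged from 14.1 to 23.9 RPKM (median 18) in 4-OHT livers and stood at 4.56, 11.3 and 3.8 RPKM in MYC tumours and 15.3, 11.5 and 6.68 RPKM in MYC+Ex3 tumours. It fell in the former, with a log2 change of -1.42 ± 0.28 (SE, limma adjusted p = 9.40e-04), and was not called in the latter, at -0.67 ± 0.28 (SE, limma adjusted p = 0.0519). In the authors' deposited table Gstm2 fell in both, by -1.54 and -0.84, with adjusted p of 5.02e-06 and 0.00163. Gstm5 rose in MYC+Ex3 tumours, to 8.91, 8.93 and 13.9 RPKM from 5.05 ± 0.755 RPKM (SD, n = 7), a change of 0.92 ± 0.16 (SE, limma adjusted p = 2.26e-04). Of the other classes, Gstt1 fell in MYC tumours, with a log2 change of -0.86 ± 0.16 (SE, limma adjusted p = 6.91e-04), and Gstk1, Gstt3 and Gstp2 fell in MYC+Ex3 tumours, with log2 changes of -1.40 ± 0.21 (SE, limma adjusted p = 6.32e-05), -0.69 ± 0.23 (SE, limma adjusted p = 0.0175) and -0.89 ± 0.21 (SE, limma adjusted p = 0.00188). In the authors' deposited table Gstt1 also fell in MYC+Ex3 tumours, by -0.59 with an adjusted p of 3.41e-06.

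Some tumour calls rested on single libraries. In MYC tumours those of Gstm4, Ugt1a2, Ugt1a6a, Ugt2b35 and Ugt2b5 were lost without MYC replicate 3, and the last 3 also without MYC replicate 2 (highest limma adjusted p = 0.0797, 0.108, 0.0805, 0.193 and 0.217). In MYC+Ex3 tumours Ugt1a6a lost its call without replicate 2 and Gstt3 without replicate 1 or 3 (highest limma adjusted p = 0.0945 and 0.0681). MYC replicate 3 had Y-linked genes at 5.41 RPKM and Xist at 0.0151 RPKM. No tumour overlapped the 4-OHT livers for 15 members that were lower in MYC tumours (8.89% of all genes) and 2 that were higher (26.3%). In MYC+Ex3 tumours the numbers were 20 lower (17.8%) and 7 higher (38.2%).

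Set directly against MYC tumours, MYC+Ex3 tumours had 5 of 47 members called, 3 higher and 2 lower, where 4.13% of all genes were called (2.02% higher and 2.1% lower). The 2 kinds did not overlap for 8 members that were higher in MYC+Ex3 tumours (8.59% of all genes), 5 of them Sult2a genes, and for 6 that were lower (7.71%). The risers were Gstm5 (0.73 ± 0.19 (SE, limma adjusted p = 0.0483)), Sult2a3 (1.84 ± 0.42 (SE, limma adjusted p = 0.0243)) and Sult2a6 (1.42 ± 0.34 (SE, limma adjusted p = 0.0315)). Gstk1 stood at 17.5, 9.79 and 19.8 RPKM in MYC tumours and 6.28, 8.44 and 4.86 RPKM in MYC+Ex3 tumours, a change of -1.12 ± 0.25 (SE, limma adjusted p = 0.0207). Ugt2b36 stood at 24.7, 15.7 and 12.9 RPKM and 9.31, 10.2 and 6.93 RPKM, a change of -0.90 ± 0.22 (SE, limma adjusted p = 0.0314). Gstm2 was not called, at 0.75 ± 0.33 (SE, limma adjusted p = 0.251), nor was Sult2a1, at 2.82 ± 1.13 (SE, limma adjusted p = 0.204). Each of the 5 calls was lost on leaving out 1 of several libraries (highest limma adjusted p = 0.114 for Gstk1, 0.0944 for Sult2a3, 0.14 for Sult2a6, 0.148 for Ugt2b36 and 0.199 for Gstm5). These were MYC tumour replicates 1 and 3 and all 3 MYC+Ex3 tumours, and for Gstm5 also 4-OHT replicates 2 to 7. The count was 8 without MYC tumour replicate 3 and 1 without any one of the MYC+Ex3 tumours, and it was 0 when only the 6 tumours were fitted. A sex term ended the calls of Gstm5, Sult2a6 and Ugt2b36 (limma adjusted p = 0.0883, 0.0588 and 0.0544).

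The genes that supply and clear the conjugates were examined from lists beside the families. Their counts stand against all-gene shares of 16.9% higher and 5.36% lower in MYC livers, 36.2% and 13.7% in MYC tumours and 42.3% and 18.4% in MYC+Ex3 tumours. Of 13 cofactor genes tested in short-term livers, 4 rose and 0 fell with MYC: the sulfate pathway phosphatase Bpnt1 (0.36), the PAPS transporter Slc35b2 (0.39), glutathione synthetase Gss (0.41) and glutathione reductase Gsr (0.46, log2 changes). In MYC tumours 2 of 14 rose and 2 fell, and in MYC+Ex3 tumours 4 rose and 2 fell. Ggt1, the gamma-glutamyl transferase that breaks down glutathione, rose by 2.99 and 4.60, Papss2, which makes PAPS, changed by -1.55 and -1.14, and the sulfate transporter Slc26a1 by -1.31 and -1.16. The median changes of this list, 0.06 and 0.12, were below those of all genes.

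Of 8 transporters of conjugates, 0 rose and 4 fell in MYC tumours, and 1 rose and 4 fell in MYC+Ex3 tumours. Abcc3, which carries glucuronides into blood, changed by -1.39 and -2.74, and the uptake carrier Slco1a1, itself male-biased, by -2.33 and -2.27. Abcc4 rose in MYC+Ex3 tumours (0.81). Of 19 regulators 1 rose and 4 fell in MYC livers: Nfe2l2, which encodes NRF2, rose (0.40), while the dioxin receptor gene Ahr (-0.67), Ppara (-0.90), Rxra (-0.50) and the bile acid receptor gene Nr1h4 (-0.31) fell. Of 13 other NRF2 targets 3 rose and 0 fell there, Cbr3 (2.34), Srxn1 (0.84) and Txnrd1 (0.45). In tumours 1 of 12 NRF2 targets rose and 4 fell with MYC alone, and 2 rose and 3 fell with both alleles. Perivenous and Wnt genes gave 1 of 15 higher and 13 lower in MYC tumours and 8 higher and 0 lower in MYC+Ex3 tumours, with Axin2 at -0.81 and 2.20.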

How the data were processed

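Total RNA libraries were prepared with a TruSeq stranded kit, per the labels' protocols. TopHat2 2.0.8, SAMtools, featureCounts 1.4.5-p1, DESeq2 and the mm9 build are named in the submitters' processing notes. The deposited unit is RPKM per gene and library, set by the authors. For each of their comparisons the authors' deposited table adds a log2 fold change with its adjusted p-value, and these are quoted for some genes only. No column belonged to another series (0 set aside). Reads per gene were recovered from the RPKM steps (20484 of 20485 genes above 0 in any library, whole to within 0.01 read) and used only for depth, read counts and floors.

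Each arm was fitted apart with limma 3.58.1 (R 4.3.3) on log2(RPKM + 1), with 1 mean per group, an empirical Bayes trend, two-sided tests and Benjamini-Hochberg adjustment over all genes tested. A gene was tested at an RPKM of 1 or more in at least 3 libraries. The script was tested on simulated data. Groups came from titles, and replicate numbers follow the order of the records. The labels give no sex, and a library was taken as male where its summed Y-linked RPKM exceeded that of Xist. The members, gene lists and tests were chosen with earlier results of these data known. Named were the called members, the 3 most abundant of each family and a fixed panel. Alternatives were other pseudocounts, filters, scaling, sex and keratin terms, subsets and each library left out. Splits by keratin and a depth covariate were chosen after seeing the data. Promoters are from RefSeq (GRCm38.p6), shared 50-base windows from GENCODE vM21 transcripts (59 of 59 members matched), and no coordinate was converted between builds. One further promoter motif that was searched, with matches in members, is not reported here.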

Additional observations from a re-analysis of the deposited data

Results flagged for a closer look

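In 96 sets of library values of called members, 4 held a library far from the rest of its group, and chance alone flags about 1 in 20 such sets. The sets came from the short-term groups and the 4-OHT livers, and the tumours were not examined in this way. Ugt2a3 was lowest in wild-type short-term liver replicate 3, a female, at 146 RPKM against 182 to 186 RPKM in the other 4. Gsta1 was highest in MYC+Ex3 liver replicate 4, a male, at 20.7 RPKM against 0.676 to 5.65 RPKM. Gstm3 was highest in the same library, at 147 RPKM against 98.5 to 113 RPKM. Sult1c2 was highest in 4-OHT liver replicate 7, a male, at 3.31 RPKM against 1.54 to 2.18 RPKM.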

How the results depend on the processing

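Of the 102 calls of a member in a comparison, 0 changed sign in any alternative that tested the gene. Among alternatives other than leaving out a library, 56 held in all that tested the gene, and 65 held with each library left out in turn. An alternative that left a gene untested was not counted against its calls, such as a filter at 5 RPKM for Gstcd in tumours. Counts of members called moved as follows. Ex3 against wild-type livers gave 3 when only the groups compared were fitted and 0 in male, keratin-free or keratin-bearing libraries. MYC livers gave 6 in male and 6 in keratin-free libraries. MYC+Ex3 livers gave 4 against wild type and 1 against Ex3 in keratin-bearing libraries. MYC+Ex3 against MYC livers gave 0 with a pseudocount of 0.1, no filter, male libraries, a keratin term or keratin-free libraries. MYC+Ex3 against MYC tumours gave 2 with a pseudocount of 0.1, 1 with no filter, 3 with a filter at 5 RPKM, 0 with only the groups compared, 2 with a sex term and 0 in male libraries. In each case the cause was not tested, and the subsets hold fewer libraries. Leaving out each library gave 1 to 2 (Ex3), 7 to 12 (MYC), 6 to 12 (MYC+Ex3), 0 to 2 (MYC+Ex3 against MYC), 4 to 14 (against Ex3), 0 to 0 (interaction), 13 to 19 (sex, short-term), 0 to 2 (sex, tumour arm), 17 to 28 (MYC tumours), 24 to 29 (MYC+Ex3 tumours) and 1 to 8 (between tumours). Splits by keratin and a term for depth were chosen after seeing the data. No paired analysis was possible because replicate numbers follow the order of the records. Members under 1 RPKM rest on few reads, and abundant ones in short-term livers sit at the compressed top of the scale. Whether abundant members in the tumour arm do so too was not tested.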
